A study of Mus musculus with 8 samples.

Results

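The genes described here are the 40 enzymes and carriers that make, move, store and release fatty acids, triglycerides and wax esters, chosen by gene symbol and by step of the pathway from the 24346 symbols measured. They were followed in RNA from mouse uterine epithelium. A total of 5 libraries came from mice with floxed Smad2, floxed Smad3 and Pgr-cre (Smad2flox/flox;Smad3flox/flox;Pgr-cre, called cKO), and 3 came from mice whose genotype is given only as control. All lines were kept on a mixed C57BL/6/129S6/SvEv background. SMAD2 and SMAD3 carry TGF-beta and activin signals into the nucleus. Pgr-cre is a Cre recombinase knocked into the progesterone receptor gene, which per the labels' protocols acts after birth in ovary, uterus, oviduct, mammary gland and pituitary, so that cells that have not expressed it keep both floxed genes and deletion is not limited to the uterus. Age, cycle stage, the way the epithelium was isolated and the alleles of the controls are given nowhere in the labels used here.

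Estimated depth was 43.2 to 54.3 M mapped fragments per library. Smad2 was at 3.58 ± 0.378 scaled FPKM in cKO (SD, n = 5) and 6.07 ± 0.342 in control (SD, n = 3), with no overlap (adjusted p = 0.00550, limma). Smad3 was at 30.7 ± 8.97 in cKO and 28.2 ± 3.07 in control, with overlap (adjusted p = 0.837, limma). Both values are summed over whole transcripts and also hold the exons outside the deleted ones. Neither the Smad2 nor the Smad3 value therefore checks the deletion. Uterine epithelium markers summed to 12281 to 22450 scaled FPKM in cKO and 22791 to 23595 in control, without overlap; most of this sum is Lcn2, at 10749 ± 2933 in cKO and 17431 ± 552 in control (adjusted p = 0.142). Of the 13 tested markers, 1 was called and 5 had an unadjusted p below 0.05, while Epcam was at 455 ± 58.3 in cKO and 478 ± 12.7 in control. Nothing in the labels ties a library to its own animal, and every p-value here rests on the variation among libraries, which may be partly technical. By their titles, cKO 1 and cKO 2 are numbered apart from the remaining 6 libraries (called the main title series), which is carried as a possible batch, and calls of the named lipid genes that change without these libraries are given both ways. In tissue RNA, fewer cells of a type and less RNA per cell cannot be told apart.

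Cells build fatty acids from cytosolic acetyl-CoA. ATP citrate lyase releases it from citrate, acetyl-CoA carboxylase turns it into malonyl-CoA, and fatty acid synthase joins the units into palmitate with NADPH that malic enzyme can supply. Palmitate is lengthened by ELOVL enzymes and given double bonds by SCD and FADS enzymes. Acyl-CoA synthetases activate fatty acids, and GPAM, AGPAT, lipin and DGAT enzymes add them to glycerol in turn to form triglyceride. Fatty alcohols made by FAR enzymes are joined to a fatty acid by AWAT enzymes to give wax esters, lipids of the sebaceous and Meibomian glands. Lipid droplets hold the esters under perilipins, and ATGL (Pnpla2), hormone-sensitive lipase and monoacylglycerol lipase break triglyceride down in that order.

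The 250 bases upstream of the transcription start are shown for 4 of the called genes. Awat2 had the largest fold and is shown with both of its starts, Acsl5 was called in every setting tried, Fasn is the central synthase, and Mgll is the lipase that was lower. The Awat2 start labelled as used in cKO was also the main start in control, with 62.0% to 91.6% of the control value. The sequences are from RefSeq on GRCm38.p6, whose coordinates equal mm10, and read 5′ to 3′ along the gene. Capitals mark matches, on either strand, to a CCAAT box (CCAAT), an E-box (CACGTG), a GC-rich SMAD element (GGCGCC) or a CAGA box (CAGACA).
Awat2, start used in cKO, minus strand, chrX:100412588-100412837: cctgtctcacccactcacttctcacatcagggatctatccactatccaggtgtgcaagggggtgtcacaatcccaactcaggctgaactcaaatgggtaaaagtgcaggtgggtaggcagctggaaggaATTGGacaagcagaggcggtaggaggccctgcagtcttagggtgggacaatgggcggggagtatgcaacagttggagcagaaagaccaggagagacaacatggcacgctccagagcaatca
Awat2, upstream start, minus strand, chrX:100442718-100442967: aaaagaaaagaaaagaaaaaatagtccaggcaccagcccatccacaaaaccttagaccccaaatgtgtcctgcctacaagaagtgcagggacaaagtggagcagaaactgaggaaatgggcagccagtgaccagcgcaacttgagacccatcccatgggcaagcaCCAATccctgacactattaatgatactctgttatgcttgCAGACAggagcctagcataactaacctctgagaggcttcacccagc
Acsl5, plus strand, chr19:55253119-55253368: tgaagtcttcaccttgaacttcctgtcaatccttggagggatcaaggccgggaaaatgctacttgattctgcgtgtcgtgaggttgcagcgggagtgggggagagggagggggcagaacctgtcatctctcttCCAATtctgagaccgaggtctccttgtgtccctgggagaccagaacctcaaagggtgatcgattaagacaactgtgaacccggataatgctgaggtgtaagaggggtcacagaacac
Fasn, minus strand, chr11:120824548-120824797: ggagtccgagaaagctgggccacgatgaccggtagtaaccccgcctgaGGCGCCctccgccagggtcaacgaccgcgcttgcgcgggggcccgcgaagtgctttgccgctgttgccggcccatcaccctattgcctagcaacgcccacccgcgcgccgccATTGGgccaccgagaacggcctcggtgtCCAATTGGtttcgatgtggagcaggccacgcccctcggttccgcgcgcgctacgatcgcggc
Mgll, plus strand, chr6:88724162-88724411: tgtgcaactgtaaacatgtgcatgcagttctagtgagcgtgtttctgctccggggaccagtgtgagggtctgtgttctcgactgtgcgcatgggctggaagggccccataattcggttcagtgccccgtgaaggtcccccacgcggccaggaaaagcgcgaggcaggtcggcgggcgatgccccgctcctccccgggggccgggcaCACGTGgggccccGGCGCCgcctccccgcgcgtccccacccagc
The 33 members found in the promoter table have 43 starts. CCAAT was found in 19 of these 43 windows (44.2%) and in 33.8% of all 32851 promoter windows of that length. GGCGCC was found in 11 (25.6%), against 9.59% of all promoters. CAGACA was found in 8 (18.6%), against 17.1%, and CACGTG in 4 (9.30%), against 6.02%. A sterol regulatory element spelled TCACNCCAC was found in 1, that of Acsl1, against 1.05% of all promoters. The matches are descriptions of these letters only. In the capitals of Fasn, the run CCAATTGG holds 2 CCAAT matches that overlap on opposite strands.

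Of the 40 members, 34 passed the filter for testing (a scaled FPKM of 1 or more in 3 or more libraries). In cKO, 5 were higher (Awat2, Fabp5, Acsl5, Me1 and Elovl7) and 8 were lower (Lpin1, Mgll, Scd2, Fasn, Acsl3, Agpat3, Acly and Acaca), at a Benjamini-Hochberg adjusted p below 0.05 in limma on log2(scaled FPKM + 1). These 13 are 38.2% of the tested members, against 14.3% of all 11315 tested genes (7.27% higher, 6.98% lower). The median log2 fold change was -0.17 over the 34 tested members and -0.0050 over all tested genes. Without cKO 1 and cKO 2 these medians were -0.0019 and -0.0066. On the TPM scale the split of calls over all genes was 510 higher and 1662 lower, against 823 higher and 790 lower here; on that scale the median of all genes was -0.20 and 12514 genes were tested. The cKO and control libraries did not overlap in 15 tested members (5 higher, 10 lower), against 24.6% of all tested genes. Each log2 fold change below is the cKO minus the control mean of log2(scaled FPKM + 1), with its limma standard error, and understates the change of low genes.

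**Figure D1:**
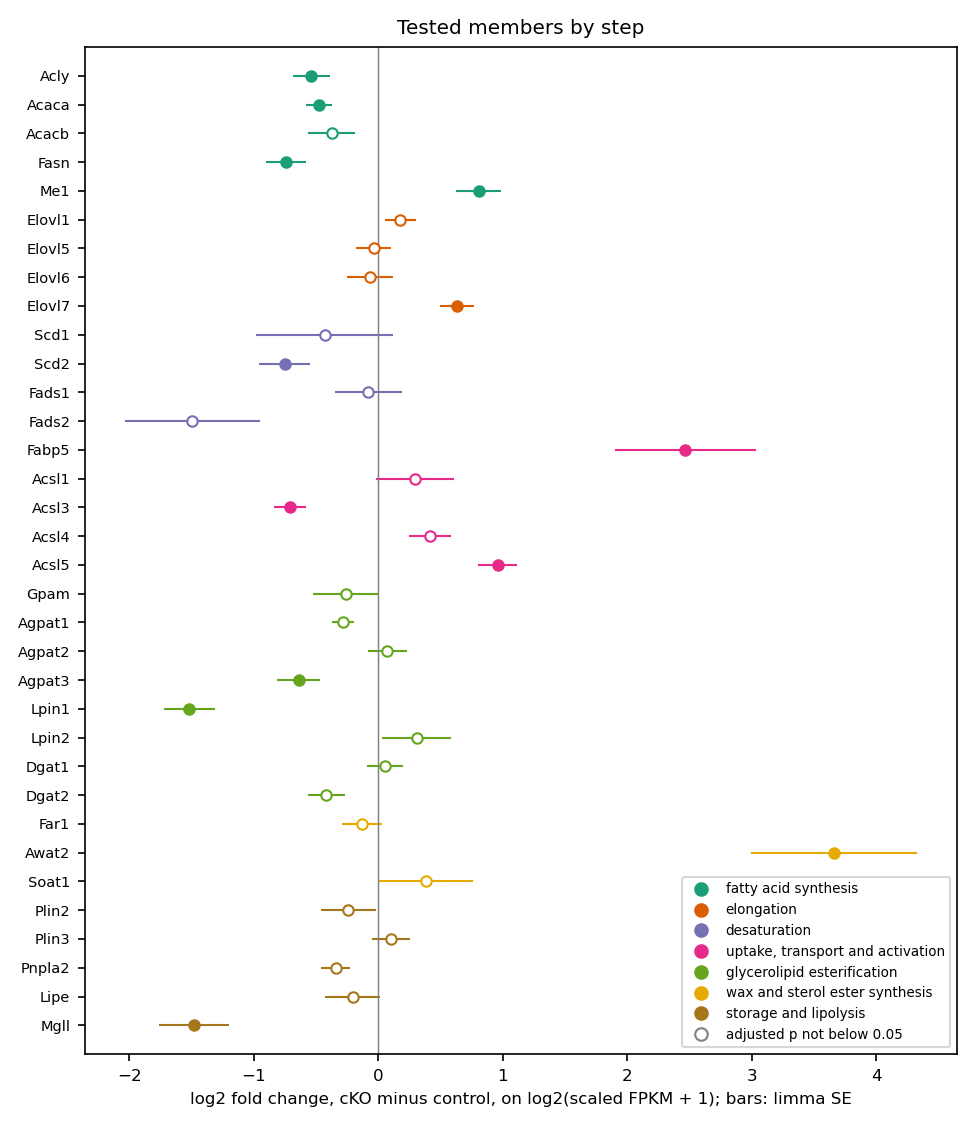
Log2 fold change (cKO minus control, log2(scaled FPKM + 1)) of the 34 tested members by step, with limma standard errors; filled points have an adjusted p below 0.05. In fatty acid synthesis, 3 of 5 members were lower and Me1 higher, while in uptake and activation Fabp5 and Acsl5 were higher and Acsl3 lower.

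Of the 5 fatty acid synthesis genes, Acly, Acaca and Fasn fell in cKO, Me1 rose and Acacb did not pass the test. Fasn (fatty acid synthase, chr11:120805958-120824547) was at 32.0, 41.8, 46.7, 56.1 and 39.0 scaled FPKM in cKO 1 to 5, and 72.5, 69.7 and 73.0 in control 1 to 3. Every cKO library lay below every control, with means of 43.1 ± 8.99 in cKO (SD, n = 5) and 71.7 ± 1.74 in control (SD, n = 3), and a log2 fold change of -0.74 ± 0.16 (adjusted p = 0.0192). Acaca (acetyl-CoA carboxylase 1, the rate-limiting enzyme, chr11:84195438-84401651) was at 3.06, 2.80, 3.13, 3.85 and 3.07 in cKO and 4.83, 4.55 and 5.02 in control (-0.47 ± 0.10, adjusted p = 0.0194). The groups did not overlap. Acly (ATP citrate lyase, chr11:100476352-100528000) was at 68.2, 62.4, 64.2, 96.7 and 66.8 in cKO and 107, 107 and 95.9 in control, and cKO 4 lay inside the control range (-0.54 ± 0.15, adjusted p = 0.0438). Me1 (cytosolic malic enzyme, which gives NADPH, chr9:86581363-86695914) was at 35.3, 26.5, 20.8, 30.6 and 32.2 in cKO and 19.9, 14.2 and 14.4 in control. Every cKO library was above every control, with a log2 fold change of 0.81 ± 0.18 (adjusted p = 0.0218). Acacb, the mitochondrial acetyl-CoA carboxylase, was at 3.27 ± 0.925 in cKO and 4.44 ± 0.591 in control (-0.37 ± 0.19, adjusted p = 0.210). Summed over the step, scaled FPKM was 150 ± 23.2 in cKO and 201 ± 8.12 in control.

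The elongases did not move as a group. Elovl7 (chr13:108214404-108287107), which lengthens saturated long-chain acyl-CoAs, rose to 9.31, 7.04, 6.24, 6.24 and 6.64 scaled FPKM in cKO 1 to 5, against 4.89, 3.93 and 3.77 in control. Its groups did not overlap (0.63 ± 0.14, adjusted p = 0.0202). Elovl5, the elongase of polyunsaturated acyl-CoAs and the most abundant of the step, was at 110, 130, 100, 137 and 138 in cKO and 141, 122 and 114 in control (-0.04 ± 0.14, adjusted p = 0.886). Elovl6, which lengthens palmitate, was at 8.55 ± 2.28 in cKO and 8.82 ± 0.996 in control (adjusted p = 0.834). Elovl1 was at 52.3 ± 6.77 in cKO and 46.0 ± 3.91 in control (adjusted p = 0.352), and shares its locus with Cdc20, so its value is uncertain. Cdc20 was listed at 29.1 in cKO 3, 18.8 in cKO 4 and 0 in the remaining libraries. Acsl3, Agpat1, Awat2, Elovl3 and Far2 also overlap a protein-coding gene (Utp14b, Egfl8, Otud6a, Pitx3 and Ergic2). Utp14b, Egfl8 and Pitx3 were listed at 0 in all 8 libraries, and Otud6a was highest at 0.110, in cKO 5. Ergic2 was at 24.8 ± 1.82 in cKO and 17.0 ± 0.937 in control (adjusted p = 0.00775, limma). What these overlaps do to the values was not tested. The sign of Elovl1 turned on the TPM scale, as did those of Agpat2, Dgat1 and Plin3, none of them called. Elovl3 did not exceed 0.391 and Elovl4 did not exceed 0.0377 in any library.

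Among desaturases, Scd2 fell, and the members varied strongly between cKO libraries. Scd2 (stearoyl-CoA desaturase 2, chr19:44293676-44306862), the most abundant desaturase, was at 221, 232, 385, 334 and 350 in cKO and 510, 476 and 519 in control (-0.75 ± 0.20, adjusted p = 0.0414), and no cKO library reached a control. Scd1, the adult liver and sebaceous gland form, was at 7.36, 11.6, 43.4, 24.4 and 47.4 in cKO and 27.1, 28.6 and 32.5 in control, with cKO libraries on both sides of the controls (-0.43 ± 0.55, adjusted p = 0.620). Fads2, the delta-6 desaturase of polyunsaturated fatty acids, was at 1.35, 2.08, 13.5, 4.01 and 7.88 in cKO and 11.6, 13.9 and 18.0 in control (-1.49 ± 0.55, adjusted p = 0.102). cKO 1 and cKO 2 were the lowest cKO libraries in Scd1, Scd2 and Fads2. Without them, the log2 fold change of Scd2 was -0.49 (adjusted p = 0.0551) that of Scd1 was 0.32 (adjusted p = 0.422) and that of Fads2 was -0.82 (adjusted p = 0.205). Without cKO 3, the highest cKO library in Fads2, Fads2 was called lower (-1.85, adjusted p = 0.0245). Fads1, the delta-5 desaturase, was at 1.28 ± 0.819 in cKO and 1.33 ± 0.444 in control (adjusted p = 0.867), and Fads3 stayed below 1 in every library.

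**Figure D2:**
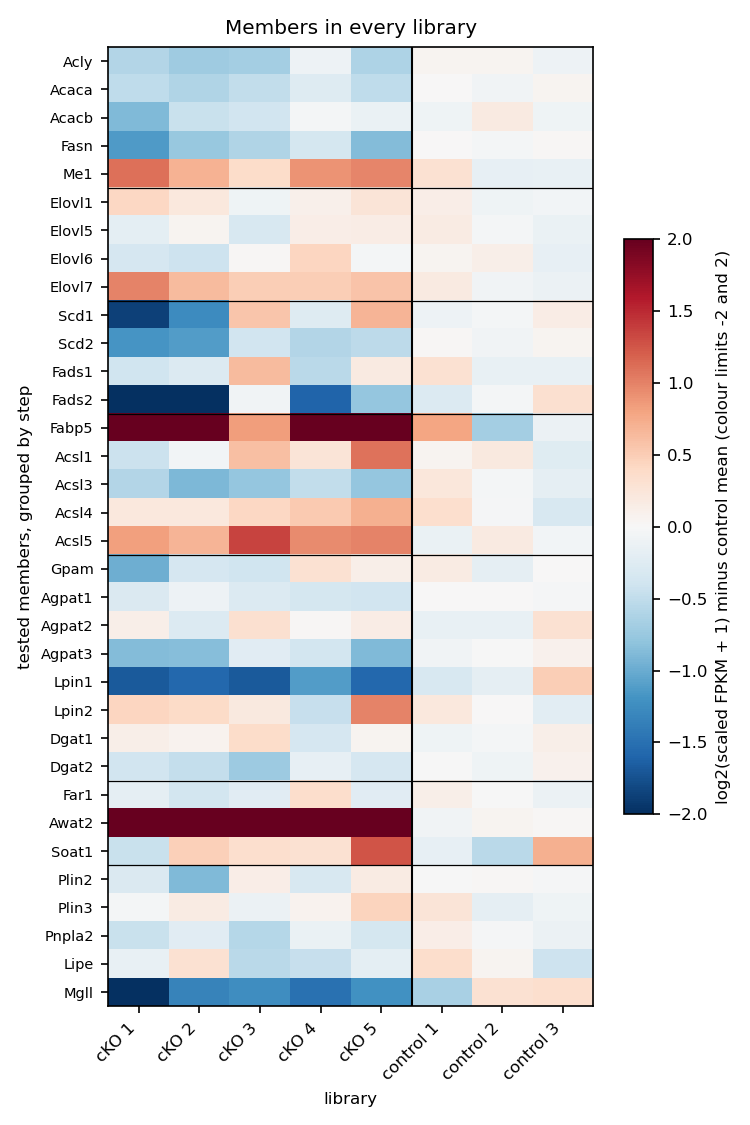
Each tested member in each library, as log2(scaled FPKM + 1) minus the control mean; colours are limited at -2 and 2. cKO 1 and cKO 2 are lowest in Scd1, Scd2 and Fads2, while Awat2, Acsl5 and Fabp5 are above the control mean in all 5 cKO libraries.

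In uptake and activation, Fabp5 and Acsl5 were higher and Acsl3 lower. Acsl5 (chr19:55253369-55296628), an acyl-CoA synthetase of mitochondria and endoplasmic reticulum, was at 56.9, 51.1, 82.8, 61.6 and 64.3 in cKO and 28.8, 36.1 and 30.6 in control, without overlap. Its mean was 63.3 ± 12.0 in cKO and 31.8 ± 3.84 in control, a log2 fold change of 0.96 ± 0.16 (adjusted p = 0.00624). Acsl3 (chr1:78657825-78707743), a synthetase of the endoplasmic reticulum and of forming lipid droplets, was at 21.1, 16.8, 18.4, 22.6 and 18.4 in cKO and 37.8, 31.5 and 28.3 in control (-0.71 ± 0.13, adjusted p = 0.00939). The highest cKO library lay below the lowest control. Within each library, the Acsl5 value over the Acsl3 value was 2.70 to 4.51 in cKO and 0.761 to 1.15 in control, a ratio chosen after its values were seen and not tested. Fabp5 (a cytosolic fatty acid carrier of epidermis and other epithelia, chr3:10012585-10016610) was at 88.8, 88.8, 16.9, 43.4 and 81.7 in cKO and 16.4, 5.26 and 8.31 in control. cKO 3 was close to the highest control, and the log2 fold change was 2.47 ± 0.56 (adjusted p = 0.0227). Without cKO 1 and cKO 2 it was 2.01 (adjusted p = 0.0829). Acsl4, which prefers arachidonate, was at 48.0 ± 7.41 in cKO and 36.1 ± 8.53 in control (0.42 ± 0.17, adjusted p = 0.137). Acsl1 was at 2.06 ± 1.26 in cKO and 1.35 ± 0.356 in control (adjusted p = 0.548). Cd36, a fatty acid receptor, stayed below 0.165 scaled FPKM in every library.

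Of the 8 genes that put fatty acids on glycerol, Lpin1 and Agpat3 fell. Lpin1 (lipin 1, the phosphatidate phosphatase that yields diacylglycerol, chr12:16535669-16589770) was at 1.97, 2.20, 1.98, 3.40 and 2.19 in cKO and 6.62, 7.43 and 12.3 in control, without overlap. Its mean was 2.35 ± 0.598 in cKO and 8.79 ± 3.09 in control, with a log2 fold change of -1.52 ± 0.20 (adjusted p = 0.00285). Agpat3 (chr10:78271563-78351700), a lysophosphatidate acyltransferase, was at 3.01, 3.05, 5.25, 4.67 and 2.99 in cKO and 5.95, 6.26 and 6.79 in control (-0.64 ± 0.17, adjusted p = 0.0425). Dgat2 (diacylglycerol acyltransferase 2, which forms triglyceride), the most abundant member, was at 455, 425, 355, 529 and 465 in cKO and 588, 558 and 628 in control. Its groups did not overlap, but the test was not passed (-0.42 ± 0.15, adjusted p = 0.0959). Dgat2 made up 27.7% of the summed member FPKM in cKO and 30.6% in control. Agpat1 was at 38.3 ± 2.95 in cKO and 46.7 ± 0.826 in control, without overlap (-0.28 ± 0.09, adjusted p = 0.0659). Agpat1 was called lower without cKO 1 and cKO 2 (-0.34, adjusted p = 0.0440) and without cKO 2 alone (-0.32, adjusted p = 0.0347). The remaining 4 members overlapped between groups, with adjusted p between 0.468 and 0.828. Gpam, which adds the first acyl chain, was at 6.13 ± 2.33 in cKO and 7.20 ± 1.01 in control, and Agpat2, of the next step, at 21.4 ± 3.28 in cKO and 20.4 ± 4.06 in control. Lpin2, a second lipin, was at 9.51 ± 3.69 in cKO and 7.11 ± 1.22 in control. Dgat1, the other triglyceride-forming enzyme, was at 16.1 ± 2.87 in cKO and 15.3 ± 1.22 in control.

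Of the wax and sterol ester genes, Awat2 (acyl-CoA wax alcohol acyltransferase 2, chrX:100402222-100442717) rose. Awat2 was at 10.4, 22.5, 24.3, 6.45 and 85.4 scaled FPKM in cKO and 0.595, 0.741 and 0.705 in control. The lowest cKO library was above the highest control, and the spread among cKO libraries was wide. The mean was 29.8 ± 32.0 in cKO and 0.680 ± 0.0763 in control, 43.9-fold, and the log2 fold change was 3.66 ± 0.67 (adjusted p = 0.00999). All 3 control values lay below the filter level of 1, so Awat2 entered the test only through its cKO libraries. The fold rests on a control mean near the floor. All of the Awat2 signal in cKO lay on the 1618-base transcript that starts at position 100412587. The 1988-base transcript that starts 30130 bases further upstream was listed at 0 in the 5 cKO libraries, with a deposited upper limit between 0.0188 and 0.0236 FPKM, and held 8.42% to 38.0% of the control value. The upstream sequence of each start is given above. Far1, which makes the fatty alcohols for wax and ether lipids, was above Awat2 in every library but cKO 5. It was at 25.9, 22.7, 24.9, 38.0 and 25.0 in cKO and 32.1, 29.4 and 27.1 in control (-0.13 ± 0.16, adjusted p = 0.609). Far2 and Awat1 were listed at 0 in all 8 libraries, with a deposited upper limit of 0.0106 to 0.0133 FPKM for Far2 and an interval of no width for Awat1. Soat1, which makes cholesteryl esters, was at 7.98 ± 3.88 in cKO and 5.85 ± 3.17 in control (adjusted p = 0.513).

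**Figure D3:**
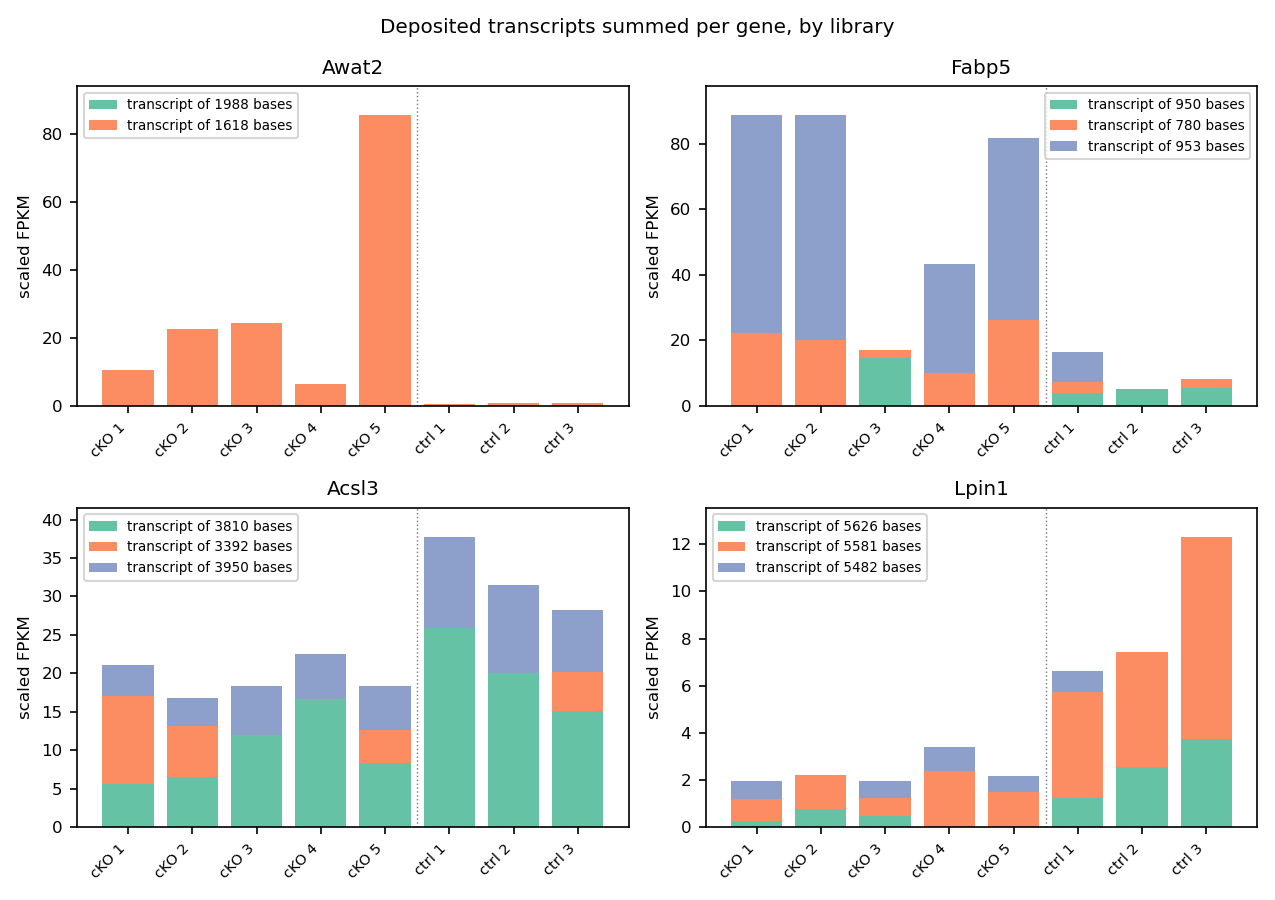
Scaled FPKM of each deposited transcript of Awat2, Fabp5, Acsl3 and Lpin1, stacked, in each library. Awat2 in cKO lies on the 1618-base transcript, while the assignment between the 950- and 953-base Fabp5 transcripts changes from library to library.

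Among droplet and lipase genes, Mgll fell. Mgll (monoacylglycerol lipase, chr6:88724412-88828360) was at 3.00, 6.07, 6.55, 5.32 and 6.67 in cKO and 10.4, 21.0 and 21.5 in control. The groups did not overlap, and its mean was 5.52 ± 1.50 in cKO and 17.6 ± 6.26 in control (-1.48 ± 0.28, adjusted p = 0.0118). Pnpla2, the first triglyceride lipase, was at 27.0 ± 3.31 in cKO and 34.4 ± 3.01 in control, without overlap (-0.34 ± 0.12, adjusted p = 0.0857). Plin2, a droplet coat protein, was at 40.7, 26.8, 54.8, 39.9 and 56.6 in cKO and 50.1, 51.2 and 49.2 in control (adjusted p = 0.482). Plin3 was at 44.3 ± 7.19 in cKO and 41.1 ± 7.08 in control, and Lipe at 5.89 ± 1.66 in cKO and 6.97 ± 2.02 in control, both overlapping.

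**Figure D4:**
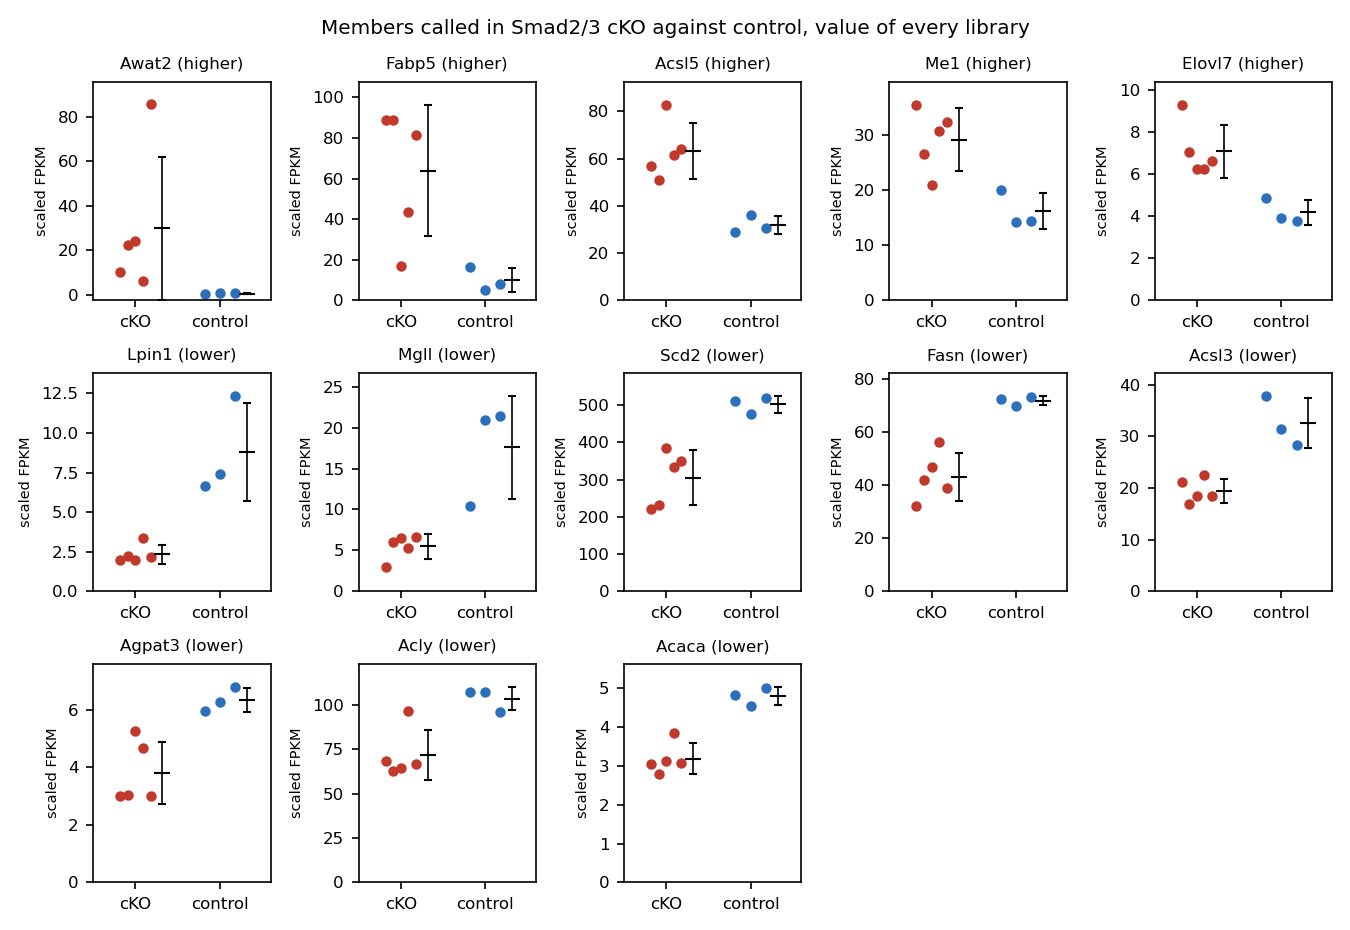
Scaled FPKM of the 13 called members in each library, with mean and SD beside the points. In 12 of them cKO and control do not overlap, against 24.6% of all tested genes. The 13 were called from the same libraries, so this adds no support to the calls. In Acly, cKO 4 at 96.7 lies within the control range of 95.9 to 107.

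Several calls were lost when single libraries were left out, and leaving out a control cost calls over all genes too. The 823 higher and 790 lower genes became 578 and 437 without control 1. They became 238 and 186 without control 2, and 243 and 176 without control 3. The losses below are therefore not particular to these members. Without control 2, Acsl3, Acsl5, Lpin1 and Awat2 passed, and the adjusted p of the other 9 was between 0.0689 (Mgll) and 0.169 (Acly). Without control 3, Acsl3, Acsl5 and Lpin1 passed, Awat2 was at 0.0512, and Agpat3 had the highest adjusted p of 0.159. Without control 1, Acaca (0.0601), Fasn (0.0571), Acly (0.118), Scd2 (0.104) and Agpat3 (0.0864) did not pass. Among the cKO libraries, leaving out cKO 1, 2, 3 or 5 ended the call of Acly (adjusted p = 0.0644 to 0.0835), leaving out cKO 1, 2, 4 or 5 that of Scd2 (0.0501 to 0.0690), and leaving out cKO 1, 2 or 5 that of Agpat3 (0.0740 to 0.0799); no other call was lost this way. All 13 kept their sign under each of the 19 other settings in which they were tested (18 for Acaca, which did not reach the filter at FPKM 5), and Acsl5 and Lpin1 passed in all of them. Without both cKO 1 and cKO 2, 3 members were higher and 5 lower, where 6.43% of all tested genes were higher and 5.30% lower, and 7 of the 13 passed (Fasn, Elovl7, Acsl3, Acsl5, Lpin1, Awat2 and Mgll). The adjusted p was then 0.132 for Acly, 0.0543 for Acaca, 0.0657 for Me1 and 0.124 for Agpat3.

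The list of 17 tested regulators of lipid synthesis held 3 higher and 1 lower gene (23.5%, against 14.3% of all tested genes). Its median log2 fold change was -0.20. Cebpa, a transcription factor of fat cell and secretory cell differentiation, was at 5.65 ± 1.18 in cKO and 2.62 ± 0.323 in control (adjusted p = 0.0111). Mid1ip1, a partner of acetyl-CoA carboxylase, was at 39.5 ± 5.44 in cKO and 26.8 ± 2.18 in control (adjusted p = 0.0245), and Insig2, a retention protein of SREBP, at 15.9 ± 2.76 in cKO and 10.4 ± 1.33 in control (adjusted p = 0.0400). Srebf2, the regulator of cholesterol synthesis, fell to 52.0 ± 3.22 in cKO, against 66.3 ± 5.33 in control (adjusted p = 0.0403). Srebf1, the regulator of fatty acid synthesis, was at 24.7 ± 3.51 in cKO and 28.9 ± 1.29 in control (adjusted p = 0.223). In the list of 14 tested genes for acetyl-CoA and NADPH supply, 1 was higher and 2 were lower (21.4%, against the same 14.3%). This list also holds genes of mitochondria, and not each of its genes makes acetyl-CoA or NADPH. Slc25a1, the mitochondrial citrate carrier, was at 75.4 ± 10.2 in cKO and 108 ± 4.57 in control (adjusted p = 0.0271). Mcat, of mitochondrial fatty acid synthesis, was at 5.92 ± 1.05 in cKO and 9.11 ± 0.898 in control (adjusted p = 0.0305), while Me3, a malic enzyme of mitochondria, was at 3.53 ± 1.26 in cKO and 1.38 ± 0.728 in control (adjusted p = 0.0458). The rest of the elongation cycle (6 tested) and the other desaturases with their electron donors (5 tested) held no call; 3 and 1 of them had an unadjusted p below 0.05. Their most abundant genes were Tecr, the last enzyme of the cycle, at 87.2 ± 4.41 in cKO and 102 ± 0.778 in control, Hsd17b12, its ketoacyl reductase, at 78.6 ± 9.59 in cKO and 95.3 ± 5.92 in control, and the electron donors Cyb5a, at 99.4 ± 19.4 in cKO and 79.3 ± 4.90 in control, and Cyb5b, at 69.8 ± 14.0 in cKO and 87.7 ± 4.45 in control.

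Other acyltransferases moved both ways. Of 16 tested, 3 were higher and 1 lower (25%, against 14.3% of all tested genes). Agpat4, a lysophosphatidate acyltransferase, rose to 12.6 ± 2.36 in cKO, against 4.23 ± 1.02 in control (1.38 ± 0.17, adjusted p = 0.00205), where Agpat3 fell. Within each library, Agpat4 over Agpat3 was 2.26 to 5.18 in cKO and 0.553 to 0.905 in control, a description chosen after its values were seen. Agpat6, which adds the first acyl chain, was at 24.2 ± 2.88 in cKO and 17.6 ± 0.356 in control (adjusted p = 0.0325), and Agpat9 at 24.0 ± 3.22 in cKO and 17.1 ± 2.50 in control (adjusted p = 0.0457). Mogat1, a monoacylglycerol acyltransferase, was at 3.39 ± 3.28 in cKO and 17.9 ± 2.78 in control (-2.37 ± 0.50, adjusted p = 0.0166). Of 11 other tested acyl-CoA synthetases and transporters, 1 was higher (9.09%). This was Slc27a4, a fatty acid transporter, at 16.1 ± 1.88 in cKO and 11.8 ± 1.05 in control (adjusted p = 0.0435). Of 11 other droplet and lipase genes, 2 were lower (18.2%). Ces1d, a carboxylesterase, was at 32.2 ± 15.1 in cKO and 184 ± 30.1 in control (adjusted p = 0.00142). Lipa, the lysosomal acid lipase, was at 4.77 ± 1.19 in cKO and 11.0 ± 1.43 in control (adjusted p = 0.00903). Of the called genes in these lists, Agpat4 and Ces1d passed in all 19 other settings, Cebpa and Lipa missed in 1 and Mogat1 in 3, and the others missed in 5 to 15. Without cKO 1 and cKO 2, the adjusted p was 0.105 for Srebf2, 0.110 for Insig2, 0.0823 for Slc25a1, 0.0552 for Mcat, 0.121 for Me3, 0.0573 for Mogat1 and 0.102 for Agpat9.

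Marker genes of other cells also differed in level between libraries. Over all tested genes, 7.27% were called higher and 6.98% lower. Neutrophil markers summed to 310 to 1999 scaled FPKM in cKO and 214 to 417 in control, and 2 of 8 tested were higher. All 8 had a positive log2 fold change (median 1.27), 6 had an unadjusted p below 0.05, and none was called without cKO 1 and cKO 2. cKO 4, at 310, was within the control range, and there Awat2 was at 6.45, Acsl5 at 61.6 and Fabp5 at 43.4. In cKO 3, which had the highest sum of 1999, Awat2 was at 24.3, Acsl5 at 82.8 and Fabp5 at 16.9. A relation between these levels was not tested. The adipocyte list was led in cKO by Fabp4, an adipocyte and endothelial carrier, at 9.96 ± 8.67 in cKO and 0.597 ± 0.491 in control (adjusted p = 0.105), while Lep, Plin4 and Cidec were listed at 0 in all libraries, 10 of 12 genes stayed under 1, and the summed level was 1.86 to 21.7 in cKO and 3.33 to 4.30 in control. Slc2a4, the insulin-responsive glucose transporter of fat and muscle, was its only call, at 1.11 ± 0.295 in cKO and 2.92 ± 0.0658 in control (adjusted p = 0.00453). In the sebaceous and keratinocyte list, 3 of 6 tested genes were higher, and 2 of the 6 had a negative log2 fold change. Its summed level was 131 to 355 in cKO and 180 to 230 in control, overlapping. In this list, 8 of 16 genes stayed under 1 in every library, Krt5 and Trp63 among them, and 10 were under the filter. Of the genes called higher in it, Krt13 and Krt15 had control means below the filter level of 1. They entered the test only through their cKO libraries, so the share of 3 of 6 depends on the filter. Stromal markers summed to 162 to 356 in cKO and 252 to 450 in control, smooth muscle markers to 17.7 to 114 in cKO and 59.9 to 337 in control, where control 1 was highest. Of the tested markers, 1 of 9 stromal genes was lower and 0 of 7 smooth muscle genes were called (limma; 0 at an unadjusted p below 0.05). All 9 and all 7 had negative log2 fold changes, with medians of -0.72 and -1.03. With their level as a term, Acsl5, Lpin1, Awat2 and Mgll still passed. Of the calls lost under it, the log2 fold change was then -0.74 for Fasn, -0.56 for Acly, -0.47 for Acaca, 0.82 for Me1, 0.70 for Elovl7, 2.25 for Fabp5, -0.62 for Acsl3, -0.63 for Scd2 and -0.54 for Agpat3. Macrophage markers summed to 472 to 735 in cKO and 398 to 628 in control, with 1 of 9 tested lower, and endothelial markers to 5.38 to 11.3 in cKO and 7.50 to 13.0 in control, with 0 of 5 called (limma; 0 at an unadjusted p below 0.05). The part of these other cells in the lipid genes' values was not tested beyond that term.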

How the data were processed

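RNA of uterine epithelium was sequenced from 5 Smad2/3 cKO and 3 control libraries after cDNA synthesis with random and oligo-dT primers. The tools named in the submitters' processing notes are bcl2fastq 1.8.3, TopHat and Cufflinks, with the mm10 genome; other versions, the annotation and strand use were not given in the sources used here. Deposited are FPKM values for 34535 transcripts, computed by the authors in each library, with a 95% interval and a status, per the file headers. Coverage signal, also deposited, served only to look at depth. Transcript FPKM was summed per symbol and put on one scale by median ratios (factors 0.924 to 1.06). The 15 genes with another status than OK, none of them members, were left out. Depth was estimated from the deposited intervals, and low values were not whole read numbers, so no count test was run.

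The 11315 genes that reached a scaled FPKM of 1 in 3 or more libraries entered a two-sided limma fit (3.58.1, R 4.3.3) with trended variance on log2(scaled FPKM + 1), and Benjamini-Hochberg adjustment ran over all of them. The fit was tested on simulated data. The members, the lists and the tests were chosen with earlier results of these data known. All members are accounted for; those called and the most abundant of each step have every library's value, and of each other list up to 4 called genes are named, or its most abundant. Alternatives were other scalings, a pseudocount of 0.1, other filters, leaving out libraries, and the title series or the level of stromal and muscle markers as terms, and array weights.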

Additional observations from a re-analysis of the deposited data

Results flagged for a closer look

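Among the 34 tested members, 5 had a cKO library far from the other 4, by the gap to the nearest library divided by the range. For normally distributed values, chance alone would mark about 1 in 20 groups this way. The rule was run on scaled FPKM and not on the log2 scale of the tests, so this rate may not hold here. Awat2 stood at 85.4 scaled FPKM in cKO 5 (gap over range 0.774), above 24.3 in the next library. In cKO 4, Acly stood at 96.7 (0.831), Lpin1 at 3.4 (0.836) and Far1 at 38.0 (0.791), each the highest of its cKO group. Elovl7 stood at 9.31 in cKO 1 (0.737). Of these genes, Acly, Lpin1, Elovl7 and Awat2 were called. Leaving out cKO 4, cKO 5 or cKO 1 turned the sign of none of these 4 calls. The calls of Lpin1, Elovl7 and Awat2 held without each of these libraries, and that of Acly held without cKO 4.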

How the results depend on the processing

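No paired analysis was possible because the labels give no replicate numbers that control and cKO libraries share. All 13 called members kept their sign in every alternative that tested them (18 for Acaca, 19 for the others). Over all genes, 823 were higher and 790 lower; TPM gave 510 and 1662, array weights 1793 and 1733, and a term for the level of stromal and muscle markers 350 and 301. Over members, 5 were higher and 8 lower; leaving out cKO 1 and cKO 2 gave 3 and 5, the title series as a term gave 3 higher, and the marker term gave 2 and 2. TPM and quantile normalization each gave 5 and 11, and array weights 6 and 12. Leaving out each library in turn gave 238 to 935 higher and 176 to 892 lower genes, and 1 to 5 higher and 2 to 8 lower members. Control 2 and control 3 moved these counts most: without control 2, 2 and 2 members, without control 3, 1 and 2; without control 1, 3 were lower, and without cKO 1 or cKO 5, 5 were lower. The cause of these changes was not tested. Of 642 comparisons of single members with their main value, 566 kept their side of the threshold, 58 lost a call and 18 gained one. No call changed direction. Some members that were not called changed sign, most often Fads1, in 7 of 18 settings. FPKM gives no counts, so for values listed at 0 only the deposited upper limits are available.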

Other observations

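Fatty acid oxidation genes did not move as a group. Of 23 tested, 1 was higher and 1 lower (8.70%, against 14.3% of all genes). Acadl, the long-chain acyl-CoA dehydrogenase, was at 23.8 ± 3.58 scaled FPKM in cKO and 14.5 ± 2.20 in control (adjusted p = 0.0178, limma), and Acadm, the medium-chain form, averaged 21.3 in cKO and 37.8 in control (-0.81 ± 0.21 on the log2 scale, adjusted p = 0.0370; 0.0596 without cKO 1 and cKO 2). Of 22 tested cholesterol synthesis genes, 6 were lower and none higher (27.3%, where 6.98% of all tested genes were lower). Their median log2 fold change was -0.33, against -0.0050 over all genes. Mvd was at 69.6 ± 11.9 in cKO and 149 ± 7.01 in control (adjusted p = 0.00238). Fdft1 was listed at 0 in the 5 cKO libraries and averaged 71.5 ± 13.8 in control; a 0 from Cufflinks may be a failed estimate.

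In the sebaceous and keratinocyte list, Rdh12, a retinol dehydrogenase, rose to 7.98 ± 1.03 in cKO, against 1.03 ± 0.289 in control (adjusted p = 6.48e-05). Krt13, an epithelial keratin, was at 5.40 ± 3.04 in cKO and 0.361 ± 0.155 in control (adjusted p = 0.0228), and Krt15, a basal keratin, at 2.32 ± 0.975 in cKO and 0.511 ± 0.132 in control (adjusted p = 0.0234). In the epithelium list, 1 of 13 was higher, Foxa2, a factor of uterine glands, at 5.26 ± 0.785 in cKO and 0.790 ± 0.301 in control (adjusted p = 0.000307). The control means of Krt13, Krt15 and Foxa2 lay below the filter level of 1. These genes entered the test through their cKO libraries, and their changes rest on control values near the floor. Itgam, in the macrophage list, was at 6.28 ± 1.71 in cKO and 51.2 ± 10.5 in control (adjusted p = 0.000236), and Nr2f2, a stromal factor, at 5.47 ± 0.694 in cKO and 8.54 ± 1.09 in control (adjusted p = 0.0175; 0.0587 without cKO 1 and cKO 2).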
